A study of Mus musculus with 7 samples.

Results

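The genes described here encode the machinery that starts transcription by RNA polymerase II: the TBP-associated factors of TFIID, the general factors TFIIB, TFIIE, TFIIF and TFIIH, the subunits of polymerase II, and Mediator. They were chosen by symbol: Taf followed by a digit, Gtf2b, Gtf2e, Gtf2f and Gtf2h genes, Polr2 followed by a letter, Med followed by a digit, and the kinase and cyclin genes Cdk7, Ccnh, Mnat1, Cdk8 and Ccnc. TFIIA and TBP genes were left out. The rule gave 65 of the 12393 genes named by a probe set of their own, each represented by 1 probe set, the brightest on average. RefSeq (GRCm38.p6) lists 82 protein-coding genes that meet the rule, so 17 were not analysed here at the level of a single gene, among them Taf1, Taf2, Taf3, Taf5, Taf9, Gtf2e1, Gtf2h2, Polr2k, Polr2l and Med13.

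The series compared haematopoietic stem cells from mouse fetal livers of embryonic day 14.5, double sorted as lineage-negative, Sca-1+, c-Kit+ and CD150+ cells, on 1 array per sample. There were 3 arrays of TFIIAα-βnc/nc embryos, homozygous for a TFIIAα-β that cannot be cleaved (called TFIIA nc/nc below), and 4 of wild-type embryos from crosses of TFIIAα-βnc/+ parents. The TFIIA nc/nc samples pooled 2, 2 and 4 littermates, and the wild-type samples held 1, 1, 4 and 3 embryos for replicates 1 to 4. The labels name no treatment, transgene or Cre driver. Values are log2 RMA intensities, a difference is the TFIIA nc/nc mean less the wild-type mean in log2 units, and a difference of 1 is a doubling.

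TFIIA stabilises TBP on DNA, and TBP is the DNA-bending subunit of TFIID, whose other subunits, the TAFs, contact promoter DNA, activators and modified histones. TFIIB then bridges TBP and polymerase II, TFIIF arrives with the polymerase, and TFIIE brings TFIIH, which opens the DNA and phosphorylates the tail of the largest polymerase subunit. Mediator carries signals from enhancer-bound factors to this assembly, and its kinase module joins it reversibly. In blood stem cells these complexes are known as shared machinery rather than as markers of a lineage.

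Some features of the arrays bear on all of these genes. Endothelial transcripts (15 genes, averaged in log2) were high on 3 arrays, at 6.85 and 7.31 for TFIIA nc/nc replicates 1 and 2 and 6.99 for wild-type replicate 1. They were 3.99 to 4.08 on the other 4 arrays. In bulk samples, fewer cells of a type and less RNA per cell cannot be told apart. The mean of 6 hepatoblast genes split the arrays the same way. It was 5.19, 5.64 and 4.53 on the 3 arrays of high endothelial transcripts, in the order above, and 3.21 to 3.72 elsewhere. Alb, at 6.12 to 7.44 against 1.84 to 2.74, and Afp, at 6.58 to 8.84 against 3.05 to 4.76, followed the split clearly. Apoa1 in wild-type replicate 1, at 2.97, was close to the 2.77 to 2.94 elsewhere, and Ahsg and Ttr overlapped between the sets. Krt18 went the other way, at 5.49 to 5.81 against 5.98 to 6.57. The later splits by endothelial transcripts are therefore also splits by Alb and Afp. The mean of 9 macrophage genes was 3.95 to 4.74 in TFIIA nc/nc and 2.91 to 4.39 in wild type. Of these genes Mrc1 followed the split, at 8.62, 8.66 and 9.03 against 3.19 to 4.45, and C1qa did not. The mean of 4 erythroid genes was 2.11 to 2.57 over all arrays. Among 6 stem cell genes the median difference was −0.32, with 2 of 6 lower at an unadjusted limma p under 0.05. The shares of all genes at this limit were 2.53% lower and 2.12% higher. In the other lists 2 of 9 macrophage genes were higher at this limit, and of 6 hepatoblast genes 3 were higher and 1 lower. The endothelial and erythroid lists had 0. Procr read 5.99, 6.26 and 6.58 in TFIIA nc/nc and 6.39, 7.04, 7.72 and 7.06 in wild type (difference −0.77), and Hlf and the sorted marker Kit both differed by −0.49. The sorted marker Slamf1 and Gata2 differed by 0.20 and 0.00, and Mecom read 2.08 to 3.15, below the array medians. None of these passed after Benjamini-Hochberg adjustment in limma. Mean Y-linked signal was 1.54 in TFIIA nc/nc replicate 1 and 3.61 to 5.68 elsewhere, and Xist was 9.76 to 11.4 on all arrays but wild-type replicates 1 (4.49) and 2 (4.47), so embryo sex also varied. Gtf2a1, the gene that carries the mutation, read 5.17, 6.16 and 5.92 in TFIIA nc/nc and 3.61, 5.27, 3.86 and 5.69 in wild type. Its difference was 1.14 (SE 0.5), with overlapping groups and a Benjamini-Hochberg adjusted p of 0.934 in limma. A mutated cleavage site need not alter its transcript. The part of other cell types in the differences below was not tested beyond the values given beside them. With a sex measure as a covariate the leading genes gave 0.69 for Gtf2h1, 0.79 for Taf13, 0.47 for Taf7 and 0.46 for Polr2a, against 0.56, 0.68, 0.52 and 0.44 without it. Several other members moved by more than 1.5 times, from −0.29 to −0.60 for Med16, −0.32 to −0.15 for Med26, −0.20 to −0.45 for Med12, −0.15 to −0.47 for Polr2e, −0.15 to −0.55 for Taf6l, −0.21 to −0.37 for Polr2m, −0.23 to −0.38 for Taf6 and 0.30 to 0.48 for Med17.

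None of the 65 genes differed between the genotypes past the threshold (limma, Benjamini-Hochberg adjusted p under 0.05 over all genes), and 1 of all 12393 genes did, 0.00807%. Of the 65, 39 were measured higher in TFIIA nc/nc and 26 lower. That is 60.0% higher, against 48.1% of all genes, with a median difference of 0.07 against −0.01. Among genes at log2 6 or more on at least 3 arrays, 29 of 43 members were measured higher, 67.4%, against 58.2% of all such genes. At an unadjusted limma p under 0.05, 4 members were higher, Gtf2h1, Taf13, Taf7 and Polr2a, where the share of all genes was 2.12%. At this limit 0 were lower, where the share was 2.53%. These counts are for the probe set taken per gene, and a dimmer Taf8 probe set, described below, was lower at this limit. No member passed in any other fit tried, including limma without moderation. These 4 genes were known from earlier results of the same arrays when the group was assembled, so their place at its head is a description and not independent evidence.

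**Figure D1:**
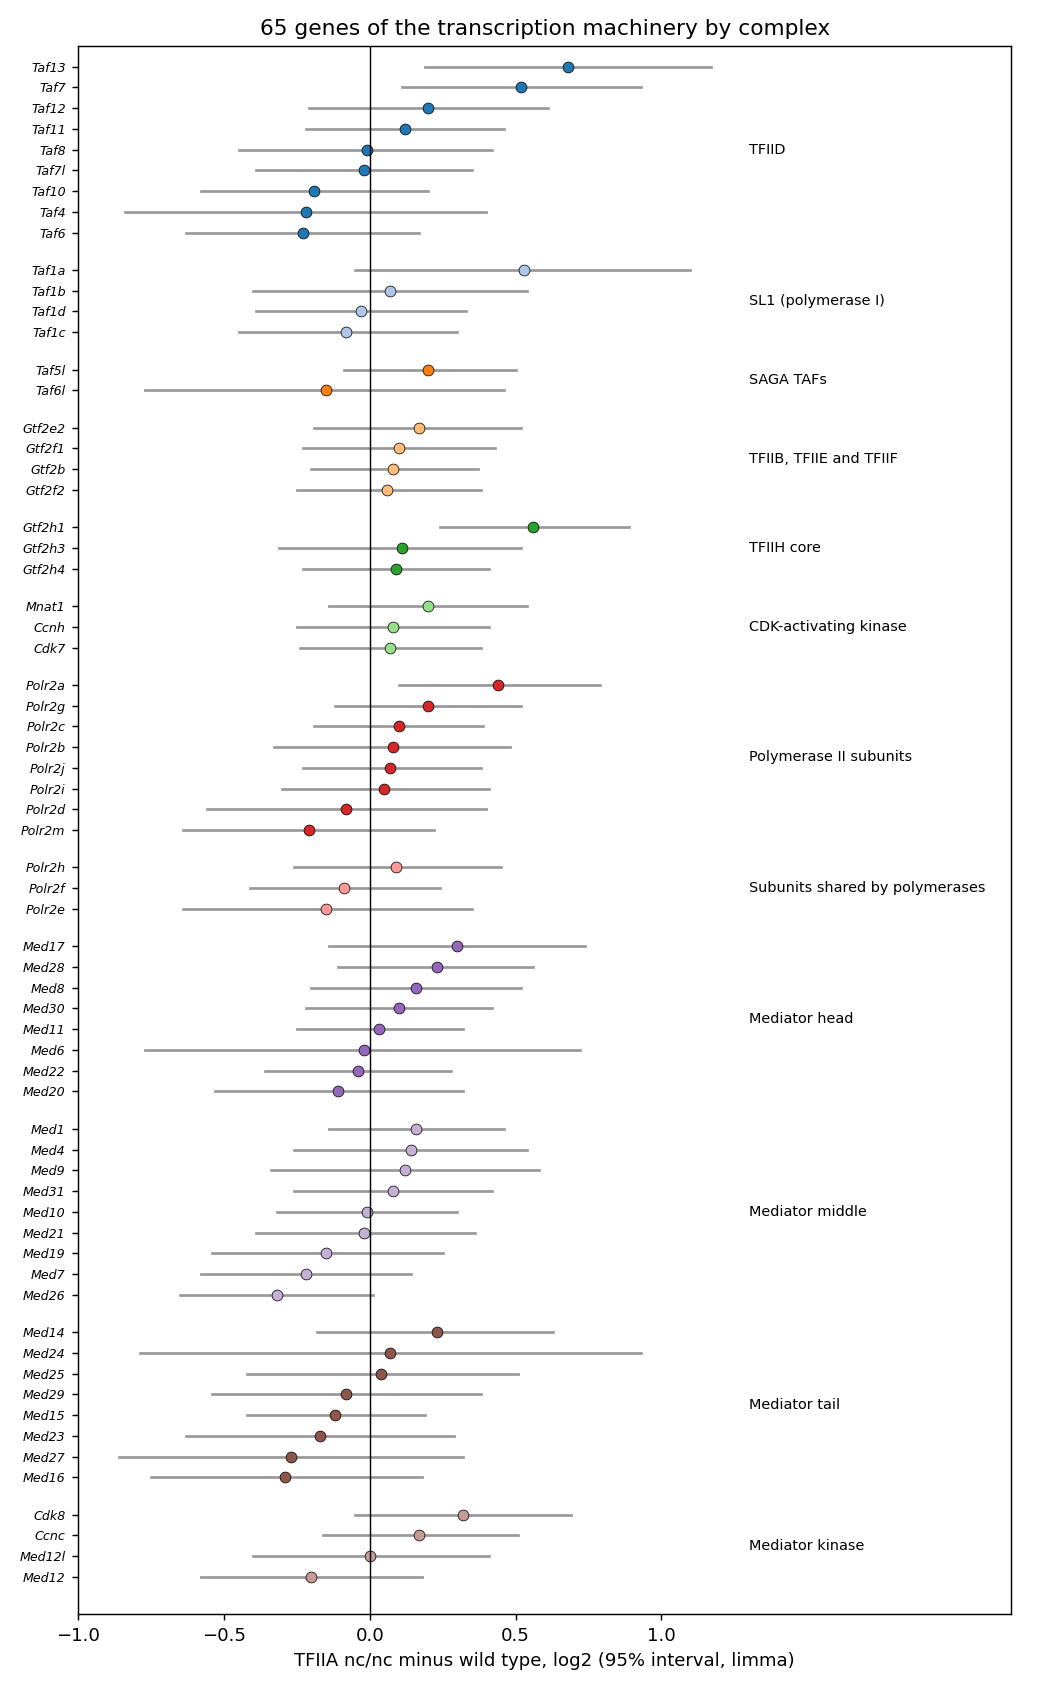
Difference in log2 level between TFIIA nc/nc (3 arrays) and wild type (4 arrays) for the 65 genes, in order of difference within each complex, with the 95% interval of limma as a grey line. The intervals of Taf13, Taf7, Gtf2h1 and Polr2a lie above 0, and all others include 0.

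The intervals also bound how far the measured intensities of the probe sets taken for these genes differed. For 63 of 65 genes the 95% interval of the single difference lay within 1 log2 unit on either side of 0, that is within a doubling in either direction, where 92% of all genes met this limit. For 45 it lay within 1.5-fold, against 52.1% of all genes. The exceptions to the wider limit were Taf13, with an interval of 0.19 to 1.17, and Taf1a, with −0.05 to 1.10. These intervals are for 1 gene at a time and are not adjusted for the number of genes. They hold for the probe set taken and not for the other probe sets of a gene. Dim genes are counted too, such as Taf7l at 1.60 to 2.16, for which a narrow interval says little about the transcript.

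Across the members, groups did not overlap for 5 genes with TFIIA nc/nc above wild type, where the share of all genes was 3.23%, and for 1 gene below, where it was 3.07%. The 5 were Gtf2h1, Polr2a, Taf5l, Med1 and Gtf2b, and the 1 was Med26. Most members were bright, and among all genes above the median level 321 of 6196 lay above and 210 below. Of the 59 members above that level, 5 lay above and 1 below. The nearest samples of the 2 genotypes were 8.153 and 8.152 for Gtf2b and were tied to 3 decimals, at 7.539, for Med1.

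In TFIID, 4 of 9 measured subunits were higher and 5 lower, with a median of −0.01, and the subunits other than Taf13 and Taf7 lay between −0.23 and 0.20. Taf13, a histone-fold subunit that pairs with Taf11 near TBP, read 6.21, 6.38 and 6.57 in TFIIA nc/nc and 5.71, 5.63, 5.27 and 6.22 in wild type. Wild-type replicate 4 reached the lowest TFIIA nc/nc sample, so the groups overlapped by that array alone. The means were 6.39 ± 0.18 (SD, n = 3) and 5.71 ± 0.39 (SD, n = 4), a 1.6-fold difference of 0.68 (SE 0.22; limma, Benjamini-Hochberg adjusted p = 0.934). Taf7, which binds Taf1 and restrains its acetyltransferase activity, read 4.86, 4.77 and 4.32 in TFIIA nc/nc and 4.37, 3.96, 3.98 and 4.20 in wild type. Here the overlap came from TFIIA nc/nc replicate 3 and wild-type replicate 1, and the difference was 0.52 (SE 0.18; limma, Benjamini-Hochberg adjusted p = 0.934). A second Taf7 probe set, at 4.05 in wild type, gave −0.17 (SE 0.50) and ranged from 2.67 to 4.95 over the arrays, so the direction for Taf7 depends on the probe set taken.

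The other histone-fold subunits differed by −0.23 to 0.20 at the probe sets taken. Taf11, the partner of Taf13, differed by 0.12 (SE 0.15). Taf12 and its partner Taf4, a scaffold of TFIID, differed by 0.20 (SE 0.18) and −0.22 (SE 0.28), and Taf10 and its partner Taf8 by −0.19 (SE 0.17) and −0.01 (SE 0.19). Taf6, a histone-fold scaffold subunit, had the largest lower value among the subunits at −0.23 (SE 0.18), with 6.11, 5.81 and 6.04 in TFIIA nc/nc and 6.36, 5.82, 6.31 and 6.39 in wild type. Its low wild-type value was that of replicate 2. A dimmer Taf8 probe set gave a different picture, at 3.75, 4.08 and 3.96 in TFIIA nc/nc and 4.73, 4.62, 4.66 and 4.32 in wild type. The groups of this probe set did not overlap, and its difference was −0.65 (SE 0.16), which did not pass over all probe sets (limma, Benjamini-Hochberg adjusted p = 0.98). Its unadjusted limma p in that fit was 0.00277, below the 0.00375 of the Gtf2h1 probe set there. Taf7l, a germ cell relative of Taf7, read 1.60 to 2.16 on all arrays, below the array medians of 3.69 to 3.82.

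TAF-named genes outside TFIID were measured on both sides of 0. Taf1a, Taf1b, Taf1c and Taf1d encode the TAFs of SL1, which recruits polymerase I to ribosomal DNA. Taf1a read 4.74, 4.13 and 4.31 in TFIIA nc/nc and 4.48, 3.87, 3.44 and 3.68 in wild type, a difference of 0.53 (SE 0.25). Within the 3 arrays of high endothelial transcripts it was −0.04 and within the other 4 it was 0.65. Taf1b, Taf1c and Taf1d differed by 0.07, −0.08 and −0.03. Taf5l and Taf6l belong to the SAGA coactivator. Taf5l read 6.22, 6.17 and 6.20 in TFIIA nc/nc and 5.91, 6.05, 6.08 and 5.92 in wild type, without overlap, a difference of 0.20 (SE 0.13). Taf6l differed by −0.15 (SE 0.27), and its highest sample was wild-type replicate 3 at 4.72, with the other wild-type samples at 3.73 to 3.88.

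All 4 measured genes of TFIIB, TFIIE and TFIIF were slightly higher, by 0.06 to 0.17, and none stood out from its error. Gtf2b, which encodes TFIIB, was among the steadiest genes of the group, at 8.19, 8.15 and 8.31 in TFIIA nc/nc and 8.14, 8.15, 8.13 and 8.11 in wild type. The difference was 0.08 (SE 0.13). Gtf2e2, a TFIIE subunit, differed by 0.17 (SE 0.16), and Gtf2f1 and Gtf2f2, the large and small TFIIF subunits, by 0.10 and 0.06. A dimmer Gtf2f1 probe set gave −0.19 (SE 0.20).

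Gtf2h1, which encodes the p62 subunit of the TFIIH core, had the smallest p among the probe sets taken for the group. It read 6.23, 6.33 and 6.33 in TFIIA nc/nc and 5.69, 5.97, 5.61 and 5.67 in wild type. Every TFIIA nc/nc sample lay above every wild-type sample, and the samples of each genotype lay close together. The means were 6.30 ± 0.06 (SD, n = 3) and 5.74 ± 0.16 (SD, n = 4), a 1.48-fold difference of 0.56 (SE 0.14; limma, unadjusted p = 0.00336 and Benjamini-Hochberg adjusted p = 0.934). It was 0.59 within the 3 arrays of high endothelial transcripts, 0.58 within the 4 of low ones and 0.51 to 0.69 over 22 other fits. Those fits include both array sets and reuse the same 7 arrays. Several of them, such as the one without moderation, could not alter the difference, so the range is not independent evidence. Gtf2h3 and Gtf2h4, 2 further core subunits, differed by 0.11 (SE 0.18) and 0.09 (SE 0.14). Outside the symbol rule, Ercc3, the DNA translocase of TFIIH, read 5.56, 5.75 and 5.78 in TFIIA nc/nc and 5.10, 5.44, 5.23 and 5.52 in wild type, a difference of 0.37 (SE 0.16), and the helicase gene Ercc2 differed by −0.06 (SE 0.20). The CDK-activating kinase, which TFIIH carries, showed 0.20 (SE 0.15) for the assembly factor Mnat1, 0.08 for the cyclin gene Ccnh and 0.07 for the kinase gene Cdk7. The Mnat1 value came mainly from TFIIA nc/nc replicate 3, at 7.10, while replicates 1 and 2 read 6.71 and 6.69 and wild type 6.54 to 6.71.

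Among the subunits of polymerase II itself, 6 of 8 were higher, with a median of 0.07. Polr2a, the largest subunit, which carries the repeated carboxy-terminal tail that TFIIH phosphorylates, read 7.72, 7.99 and 7.59 in TFIIA nc/nc and 7.26, 7.41, 7.18 and 7.44 in wild type. All TFIIA nc/nc samples lay above all wild-type samples, replicate 2 highest. The means were 7.77 ± 0.20 (SD, n = 3) and 7.32 ± 0.13 (SD, n = 4), a 1.36-fold difference of 0.44 (SE 0.15; limma, Benjamini-Hochberg adjusted p = 0.934). A dimmer Polr2a probe set, at 4.26 in wild type, gave 0.15 (SE 0.18). Polr2b, its partner in the catalytic core, differed by only 0.08 (SE 0.18), at 8.59, 8.86 and 9.08 against 8.84, 8.97, 8.46 and 8.80. Polr2c, Polr2g, Polr2i and Polr2j differed by 0.10, 0.20, 0.05 and 0.07. Polr2d, partner of Polr2g in the stalk, differed by −0.08 and Polr2m, a polymerase-bound protein that makes initiation depend on Mediator, by −0.21 (SE 0.19). The measured subunits shared with polymerases I and III, Polr2e, Polr2f and Polr2h, differed by −0.15, −0.09 and 0.09, and the 9.10 of Polr2e in wild-type replicate 3 stood above its other values of 8.17 to 8.42.

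**Figure D2:**
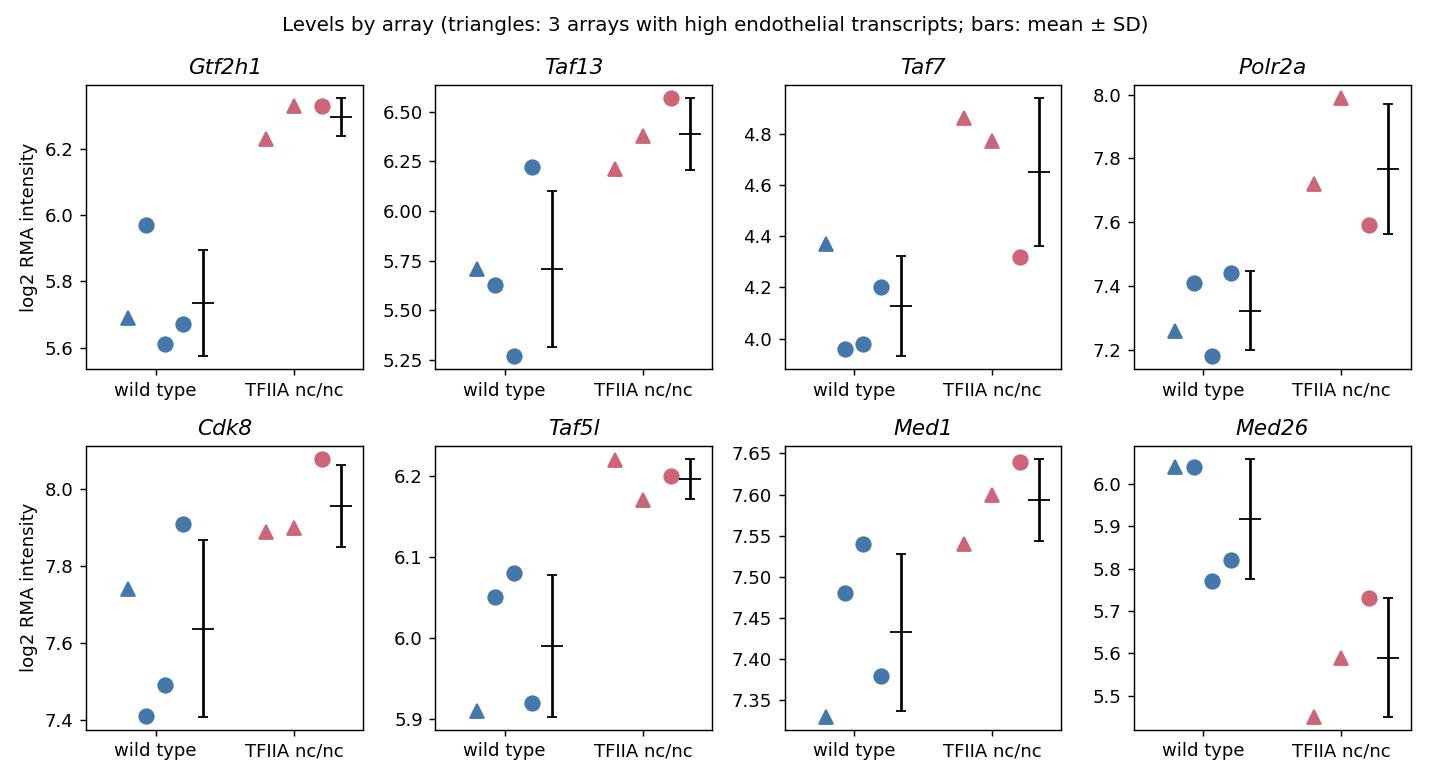
Log2 RMA intensity of 8 genes on each array, with wild type in blue and TFIIA nc/nc in red, triangles for the 3 arrays of high endothelial transcripts and bars for mean ± SD (n = 4 and 3). Gtf2h1, Polr2a and Taf5l show TFIIA nc/nc above wild type on every array, Med26 shows the reverse, and Taf13, Taf7 and Cdk8 overlap by single arrays.

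The letters of the promoters, which the rule did not use, were also described. Promoter sequences from RefSeq (GRCm38.p6), 250 bases before to 50 after the start site, were found for 56 of the 65 genes. The letters TATAAA, the core of the TATA box to which TBP binds, were searched on both strands and stood in the window of 10 of these 56 genes, 17.9%, against 11.9% of the 9887 measured genes with a promoter entry. At a first base 35 to 25 bases before the start on the sense strand, a window chosen after the sequences were seen, they stood in 2 of 56, Taf13 and Polr2a. That is 3.57%, close to the 2.85% of all measured genes with an entry, so it does not set the members apart. The first base lay 32 bases before the start in Taf13 and 33 in Polr2a. The 150 bases before each start are shown with TATAAA in capitals, beside those of Gtf2h1, which hold no TATAAA. These 3 genes were chosen since they had the smallest p among the probe sets taken for the group. Taf13 is chr3:108571549-108571698 on the plus strand, Polr2a is chr11:69758634-69758783 on the minus strand and Gtf2h1 is chr7:46795944-46796093 on the plus strand.
Taf13: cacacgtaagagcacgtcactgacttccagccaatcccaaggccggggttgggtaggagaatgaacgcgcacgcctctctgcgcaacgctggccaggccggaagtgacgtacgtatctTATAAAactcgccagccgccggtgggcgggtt
Polr2a: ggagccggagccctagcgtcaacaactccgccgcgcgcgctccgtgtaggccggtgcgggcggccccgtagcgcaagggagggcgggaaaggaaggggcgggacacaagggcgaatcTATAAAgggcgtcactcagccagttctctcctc
Gtf2h1: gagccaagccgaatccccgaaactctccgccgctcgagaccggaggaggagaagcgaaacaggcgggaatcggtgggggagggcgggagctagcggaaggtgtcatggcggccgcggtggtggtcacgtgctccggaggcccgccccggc

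The other 8 genes with TATAAA anywhere in the window differed by −0.29 to 0.23 and included members on both sides of 0. Those measured higher were Med28 at 0.23, Taf11 at 0.12, Gtf2f1 at 0.10 and Polr2c at 0.10, and those lower were Med16 at −0.29, Taf6 at −0.23, Med7 at −0.22 and Taf7l at −0.02. The letters GCCATNTT, the core recognised by YY1, stood on either strand of 11 of the 56 promoters, 19.6%, against 8.55% of all measured genes with an entry. These 11 genes, among them Gtf2b, Taf4, Taf6, Taf8, Polr2i, Med25, Med27 and Med31, differed by −0.27 to 0.08, and none of the leading 4 was among them. No test was made of either share, and a match of letters is a description, not a bound site.

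Mediator, with 29 measured genes, was split almost evenly, with 15 higher and 14 lower and a median of 0.00. In the head module, which contacts the polymerase, 5 of 8 were higher. Med17, its central scaffold, read 7.17, 7.34 and 7.47 in TFIIA nc/nc and 7.15, 7.03, 6.58 and 7.35 in wild type, a difference of 0.30 (SE 0.20) that was 0.11 within the arrays of high endothelial transcripts and 0.48 within the others. Med28 and Med8 differed by 0.23 and 0.16, and Med20 by −0.11 (SE 0.19). Med6 was the least steady head subunit, at 5.39, 5.34 and 5.48 in TFIIA nc/nc but 4.54, 5.20, 6.09 and 5.89 in wild type.

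In the middle module 4 of 9 were higher and 5 lower, with a median of −0.01. Med26, through which Mediator recruits elongation factors, read 5.45, 5.59 and 5.73 in TFIIA nc/nc and 6.04, 6.04, 5.77 and 5.82 in wild type. It was the only member with all TFIIA nc/nc samples below all wild-type samples, by 0.80-fold or −0.32 (SE 0.15; limma, Benjamini-Hochberg adjusted p = 0.934). The difference was −0.52 within the arrays of high endothelial transcripts and −0.14 within the others. Med1, the subunit bound by nuclear receptors and by GATA factors, read 7.54, 7.60 and 7.64 in TFIIA nc/nc and 7.33, 7.48, 7.54 and 7.38 in wild type, a difference of 0.16 (SE 0.13). Its 5 other probe sets were also measured higher, by 0.03 to 0.46, but most were dim. The brightest of them, at 7.09 in wild type, gave 0.46 (SE 0.32) with wild-type replicate 3 lowest at 6.16. The others had wild-type means of 2.18 to 3.67, below the array medians, and add little. Med7 differed by −0.22 (SE 0.16), and Med10 and Med21 by −0.01 and −0.02.

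The tail module, which binds activators, and the backbone gene Med14 had the lowest median of the Mediator modules, −0.10, with 3 of 8 higher. Med16 read 5.89, 5.63 and 5.69 in TFIIA nc/nc and 5.68, 5.87, 6.52 and 6.03 in wild type, a difference of −0.29 (SE 0.21). Med27 and Med23 differed by −0.27 (SE 0.26) and −0.17 (SE 0.20), and Med14 by 0.23 (SE 0.18), at levels of 3.07 to 3.73 near or below the array medians. The wild-type SD ran from 0.10 for Med14 and 0.11 for Med15 to 0.82 for Med24. Med24 read 3.01 in wild-type replicate 1, 3.99 in replicate 2, 4.54 in replicate 3 and 4.88 in replicate 4, while TFIIA nc/nc read 3.96, 4.27 and 4.30. The number of the 8 tail members above their own mean over 7 arrays was 2, 2, 5 and 8 in wild-type replicates 1 to 4 and 0, 5 and 3 in TFIIA nc/nc replicates 1 to 3, where the share of all genes was 43.0% to 51.6% by array.

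Wild-type replicates 3 and 4 were pools of 4 and 3 embryos, whereas replicates 1 and 2 held 1 embryo each. With the single-embryo samples left out, 7 members were lower and 4 higher at an unadjusted limma p under 0.05, where all genes gave 6.32% lower and 5.44% higher. Of the 7, 4 were tail genes, with differences of −0.69 for Med27, −0.54 for Med16, −0.53 for Med24 and −0.46 for Med23. The other 3 were Med6 at −0.58, Polr2m at −0.44 and Taf10 at −0.42, and the 4 higher genes were Gtf2h1, Taf1a, Taf7 and Polr2a. The lowest Benjamini-Hochberg adjusted p among them in limma was 0.216, for Gtf2h1. Pooling is one of several properties in which these wild-type arrays differ. The single-embryo samples were also the only arrays of low Xist, at 4.49 and 4.47 against 9.76 to 11.4 elsewhere. Leaving them out therefore also removes the arrays of low Xist, and the parts of pooling and of embryo sex here were not tested.

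In the kinase module, which gates the contact of Mediator with the polymerase, 3 of 4 were higher. Cdk8, its kinase, read 7.89, 7.90 and 8.08 in TFIIA nc/nc and 7.74, 7.41, 7.49 and 7.91 in wild type, a difference of 0.32 (SE 0.16). Only wild-type replicate 4 overlapped the TFIIA nc/nc samples. Its cyclin Ccnc differed by 0.17 (SE 0.15), with other Ccnc probe sets at 0.23 and −0.17. Med12, which activates the kinase, differed by −0.20 (SE 0.17), and Med12l by 0.00 (SE 0.18).

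**Figure D3:**
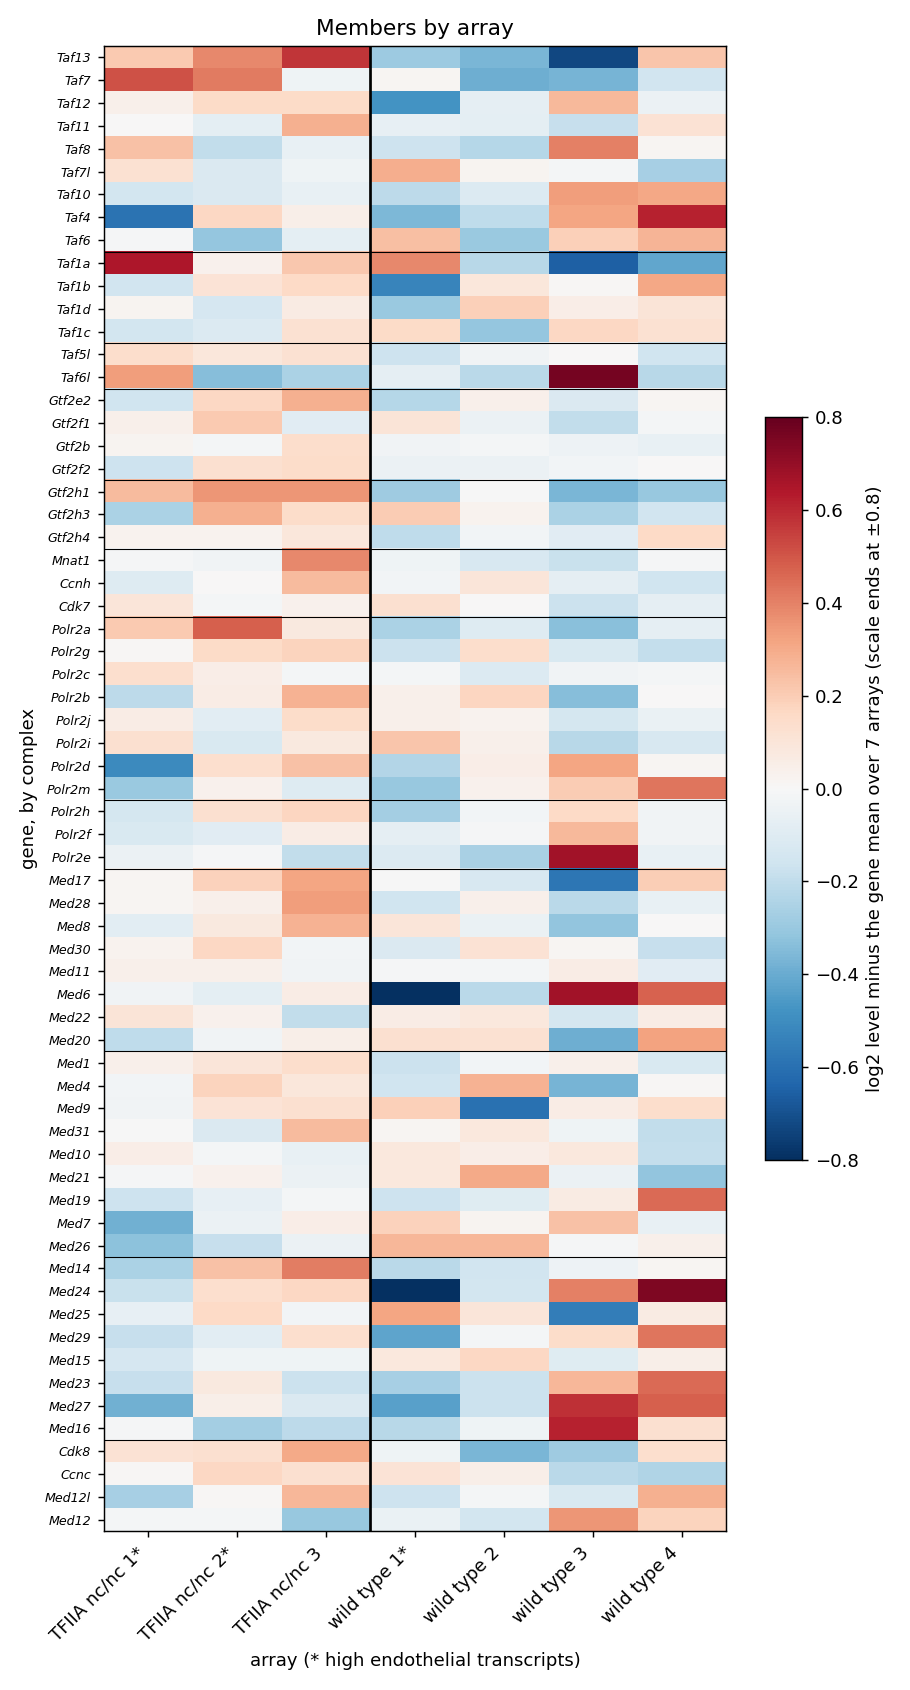
Log2 level of each member on each array minus its mean over the 7 arrays, red above and blue below, with complexes separated by lines and the genotypes by a vertical line. Wild-type replicate 3 holds the highest or the lowest value for 33 of the 65 genes, and TFIIA nc/nc replicate 3 holds the highest for 19.

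By array, the median deviation of the 65 genes from their own means was −0.012, 0.04 and 0.089 in TFIIA nc/nc replicates 1 to 3 and −0.061, −0.019, −0.031 and 0.008 in the wild-type arrays, where over all genes it lay between −0.036 and 0.01. TFIIA nc/nc replicate 3 held the highest value of 19 members, and it held the highest of 11.8% of all genes. Without this array the median difference of the members was 0.015 in place of 0.07. Wild-type replicate 3 was the lowest array for 18 members and the highest for 15, against 21.1% and 19.6% of all genes. The genes lowest there included Gtf2h1, Taf13, Taf1a and Polr2a, and those highest there included Polr2e, Taf10, Med6, Med16 and Med27. Without it the differences were 0.52 for Gtf2h1, 0.54 for Taf13 and 0.39 for Polr2a, while Med16 was −0.12 in place of −0.29, Med12 −0.11 in place of −0.20, Med17 0.15 in place of 0.30, and Polr2e and Taf6l changed sign to 0.06 and 0.08.

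The 3 arrays of high and the 4 of low endothelial transcripts gave separate estimates, with no array in common. Of the 65 genes, 25 were higher in both, 7 lower in both and 33 differed in sign. The shares of members were 38.5%, 10.8% and 50.8%, against 25.6%, 28.4% and 46.0% of all genes. Among genes at log2 6 or more on at least 3 arrays 46.5% of members and 39.0% of all were higher in both, and 39.5% and 43.3% differed in sign. For Taf13 the values were 0.59 and 0.86, for Taf7 0.44 and 0.28, for Polr2a 0.59 and 0.25 and for Cdk8 0.15 and 0.48. The low set holds 1 TFIIA nc/nc array and the high set 1 wild-type array, so each estimate rests on a single array on one side.

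**Figure D4:**
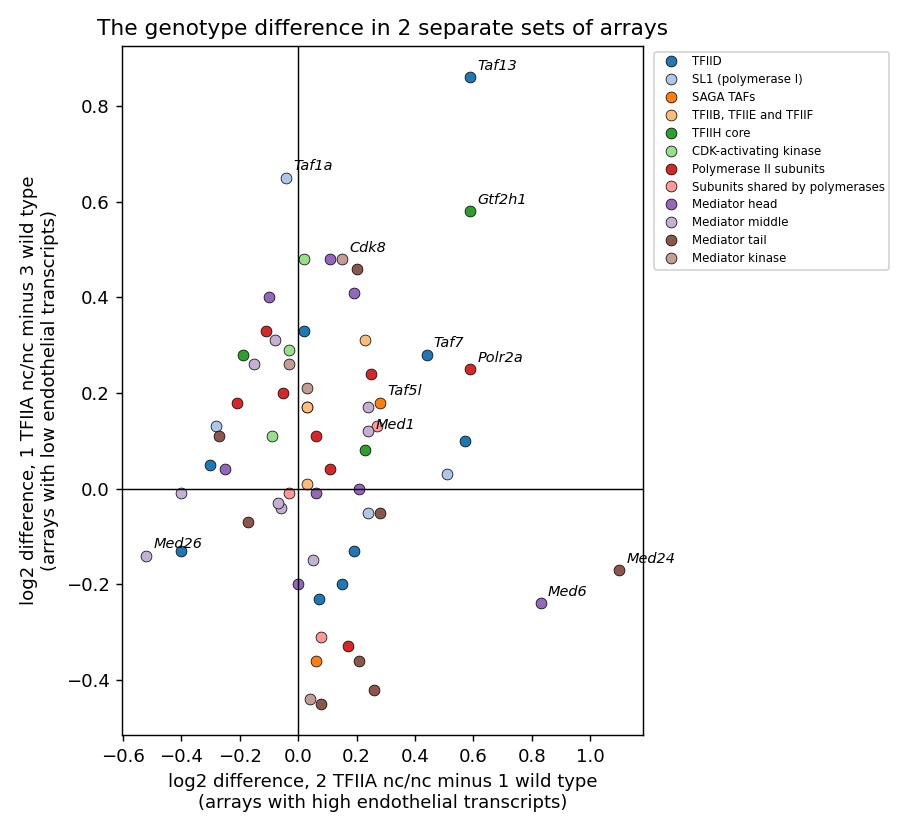
Log2 difference between TFIIA nc/nc and wild type for each member within the 3 arrays of high endothelial transcripts (horizontal) and within the 4 of low ones (vertical), coloured by complex. Gtf2h1, at 0.59 and 0.58, and Taf13 lie far from 0 on both axes, while Med24 and Med6 stand to the right and were both lowest in wild-type replicate 1.

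Lists of genes that act beside this machinery were also measured on both sides of 0. Of 23 measured elongation genes 12 were higher and 11 lower (median 0.03), of 15 SAGA and ATAC genes 5 and 10 (median −0.08), of 21 genes of polymerases I and III 14 and 7 (median 0.10), and of 12 genes of polymerase assembly and of phosphatases of its tail 6 and 6 (median −0.01). None passed in limma after adjustment. Ctdp1, the phosphatase that removes phosphate from the tail of Polr2a, read 4.99, 5.08 and 4.77 in TFIIA nc/nc and 4.58, 3.95, 3.61 and 4.65 in wild type. The groups were separate, with a difference of 0.75 (SE 0.26; limma, unadjusted p = 0.0166 and Benjamini-Hochberg adjusted p = 0.934). Ctdsp2, a small phosphatase of the same tail, read 7.94, 8.14 and 7.83 against 8.19, 8.23, 8.37 and 8.36, a difference of −0.32 (SE 0.14). Groups were also separate for the assembly factor genes Rpap3, at 0.20 (SE 0.13), and Gpn3, at 0.30 (SE 0.15). Thus 3 of the 12 assembly and phosphatase genes lay above without overlap and 1 below, where the shares of all genes were 3.23% and 3.07%. In the elongation list and in the SAGA and ATAC list 0 genes had separate groups, and in that of polymerases I and III 1 lay above. Hexim1, which holds the elongation kinase P-TEFb inactive, differed by 0.32 (SE 0.17) and Ctr9, a PAF complex subunit, by −0.47 (SE 0.25). In the SAGA and ATAC list, the adaptor gene Tada2b and the acetyltransferase gene Kat2b differed by 0.31 (SE 0.17) and −0.27 (SE 0.18). Polr1b, the second largest polymerase I subunit, differed by 0.50 (SE 0.24), and Polr1c, shared by polymerases I and III, by −0.21 (SE 0.15).

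Probe sets beyond the one taken per gene were available for 21 members, 32 in all. Of these 20 had the sign of the main probe set and 12 the opposite. Among the 9 with a mean log2 level of at least 5, 3 had the opposite sign. None of the 97 member probe sets passed when every probe set was tested on its own.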

How the data were processed

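Gene expression was measured on 7 Affymetrix arrays. The authors deposited intensities summarised by RMA. The software was Expression Console, per the submitters' processing notes, and its version is not given in the sources used here. This method corrects background, equalises the arrays and returns a value even for probe sets with no transcript, which shrinks differences between dim ones. Scanner files and scan dates were not used here, so array batches were not tested, and the number of arrays limits precision.

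The intensities were linear, so log2 was taken with no pseudocount. Of 22690 probe sets 64 controls were left out. A single gene symbol stood beside 20380, several beside 691 and none beside 1555, and symbols were updated by Entrez identifier (12369 of 12393 genes matched). The test between genotypes was limma 3.58.1 (R 4.3.3, lmFit, then eBayes) on all genes, 2-sided, Benjamini-Hochberg adjusted, and checked on simulated data. The simulated noise was independent between genes, so that check does not cover the variation that genes share across these arrays. Genes named were the leading 4, in each complex the smallest p in each direction, and those without overlap; the remaining members were named with their values in view. Members, lists and rules were chosen with earlier results of these data known. Replicate numbers did not pair the samples (correlations of deviations 0.38, −0.19 and 0.11). Plots used matplotlib 3.10.9.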

Additional observations from a re-analysis of the deposited data

Results flagged for a closer look

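In 6 members 1 of the 4 wild-type samples stood far from the other 3, with a gap to its neighbour, as a share of the whole range, above Dixon's 95% limit for 4 samples. That is 9.23% of the members against 6.19% of all genes, and chance gives about 1 in 20. Wild-type replicate 2 was low for Taf1c, at 5.40 against 5.83 to 5.87 (ratio 0.915), for Taf6, at 5.82 against 6.31 to 6.39 (ratio 0.856), and for Med9, at 5.88 against 6.54 to 6.67 (ratio 0.835). Wild-type replicate 3 was low for Med22, at 5.21 against 5.41 to 5.43 (ratio 0.891), and high for Taf6l, at 4.72 against 3.73 to 3.88 (ratio 0.847). Wild-type replicate 4 was low for Med10, at 7.50 against 7.74 to 7.77 (ratio 0.863).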

How the results depend on the processing

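In 24 other settings 0 members passed the threshold, and of 65 genes 38 to 43 were measured higher where all were fitted. Over all genes 1 passed, against 0 above the median level, at log2 6 or more on 3 arrays, or without moderation, 2 with embryos pooled, the sex measure or only the 4 arrays of low endothelial transcripts, and 3 with pooled samples only. Leaving out 1 array gave 1 to 3 genes and member medians of 0.015 to 0.101, the 3 genes without wild-type replicate 1 and the lowest median without TFIIA nc/nc replicate 3. The sets of 3 and 4 arrays hold a lone sample on one side, assumed to vary like the others. With a replicate block 42 members were higher (median 0.067) and 1 gene passed, and no call changed.

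Of 397 alternative values for 23 named genes that could differ from the main ones, 383 kept their direction and 14 changed sign. The genes were named by their p or separation in the same arrays that the settings reuse, so kept directions are not independent evidence. In 97 further values, such as those without moderation, the difference was fixed by construction, and 0 of all passed. Within the 3 arrays of high endothelial transcripts Med12 was 0.04, Med16 0.08, Polr2e 0.08, Polr2m 0.17, Taf1a −0.04 and Taf6l 0.06. Within the 4 of low ones Med20 was 0.04 and Taf1c 0.13. Med20 was 0.08 with the sex measure, Taf1c 0.03 with array weights, Polr2h −0.01 with pooled samples only, and Taf7 −0.17 with its probe set of largest interquartile range. Without wild-type replicate 3 Polr2e was 0.06 and Taf6l 0.08, and leaving out each array in turn gave −0.25 to 0.06 and −0.36 to 0.08. The cause of each change was not tested. Dim probe sets such as Taf7l limit what these arrays resolve.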

Other observations

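A further 5 probe sets name a gene of this machinery together with another gene, so their signal cannot be given to either alone. Of 3 that name Taf9, the histone-fold partner of Taf6, 2 shared with Gm12372 differed by −0.02 and 0.04. The third, shared with Ak6, read 7.51, 7.41 and 7.65 in TFIIA nc/nc and 7.29, 7.29, 7.16 and 6.95 in wild type, without overlap, a difference of 0.35. The probe set of Polr2l, a small subunit common to the polymerases, and Usp50 read 9.53, 9.38 and 9.44 against 9.47, 9.03, 9.14 and 9.18, a difference of 0.25. That of Polr2k, another such subunit, and LOC100862456 read 8.26, 8.34 and 8.49 against 8.16, 8.37, 8.18 and 8.23, a difference of 0.13. These probe sets were described and not tested.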
